A study of Mus musculus with 31 samples.

Results

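Ccl2, Ccl7, Ccl8, Ccl12, Ccr2 and Cx3cl1 were followed by name in transcriptomes of 2 irradiated mouse tumor models, and all 6 were present among the 46072 genes listed for each library. The first 4 encode monocyte chemokines, Ccr2 encodes their main receptor, and Cx3cl1 encodes fractalkine. RM-9 is a mouse prostate cancer line and MC-38 a mouse colon cancer line. Each was grown under the skin of the right hind leg of male wild-type C57BL/6J mice, 6 to 7 weeks old, until the tumor measured about 8 mm. Irradiated mice then received a single local dose of 15 Gy (RT), and RNA was taken from about 50 mg of tumor tissue at 3, 12 or 24 h. Each library came from 1 mouse. RM-9 had 4 untreated Control mice, 4 at 3 h, 4 at 12 h and 3 at 24 h, and MC-38 had 4 mice in each of the same groups. The Control mice carried tumors and received no irradiation. The labels place them with the 3 h samples, so that no Control of the later times was analysed and all RT groups of a model share the same 4 Control mice. Levels are given as TPM, the transcripts of a gene per 1000000 transcripts, which are scaled to transcript length and can be compared between genes.

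Monocytes leave the bone marrow and enter inflamed tissue along gradients of CC chemokines. CCL2, CCL7 and CCL12 bind the receptor CCR2 on classical, Ly6C-high monocytes, and CCL12 exists in the mouse and not in humans. Mouse CCL8 is a close relative that is also known to act through CCR8. Fractalkine differs from all of these. It is made as a protein anchored in the membrane of endothelial and other cells, is shed by the proteases ADAM10 and ADAM17, and binds the single receptor CX3CR1 on patrolling monocytes, tissue macrophages and some lymphocytes. In tumors these genes are known for their part in the supply of monocytes from which tumor macrophages form.

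The 4 ligand genes lie side by side on chromosome 11. In the coordinates of the files, which are those of GRCm38, Ccl2 (ENSMUSG00000035385) occupies chr11:82035571-82037453, Ccl7 (ENSMUSG00000035373) chr11:82045712-82047525, Ccl12 (ENSMUSG00000035352) chr11:82101845-82103400 and Ccl8 (ENSMUSG00000009185) chr11:82115185-82116799, all on the plus strand. Ccl11, the eotaxin gene, lies between Ccl7 and Ccl12. Ccr2 (ENSMUSG00000049103) lies on the plus strand at chr9:124101950-124113557 and Cx3cl1 (ENSMUSG00000031778) at chr8:94772009-94782423. The reads were 75 bases long, and 0 of the 75-base windows of Ccl2, Ccl7, Ccl8, Ccl12 or Cx3cl1 transcripts occurred in a transcript of another gene. Of the 6734 windows of Ccr2, 78 (1.16%) were not unique to it. Gm17268, an antisense gene that overlaps Ccl2, was listed at 0 in every library.

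RefSeq promoter windows on GRCm38.p6 matched 4 of the 6 genes, namely Ccl8, Ccl12, Ccr2 and Cx3cl1, and no window was matched for Ccl2 and Ccl7. The stretches upstream of Ccl12 and Ccl8 are shown because Ccl12 was called in MC-38 and Ccl8 is its neighbour, and that of Cx3cl1 because it had the largest called change against Control. They are chr11:82101645-82101844, chr11:82114985-82115184 and chr8:94772150-94772179, all plus strand, 5′ to 3′, with motif matches in capitals. The Cx3cl1 stretch precedes the start site of its RefSeq window and lies within the gene as the files list it, which starts further upstream.
Ccl12: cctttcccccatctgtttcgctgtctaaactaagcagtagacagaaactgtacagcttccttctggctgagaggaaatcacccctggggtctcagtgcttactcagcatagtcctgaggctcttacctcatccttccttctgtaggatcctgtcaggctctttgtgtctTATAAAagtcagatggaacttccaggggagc
Ccl8: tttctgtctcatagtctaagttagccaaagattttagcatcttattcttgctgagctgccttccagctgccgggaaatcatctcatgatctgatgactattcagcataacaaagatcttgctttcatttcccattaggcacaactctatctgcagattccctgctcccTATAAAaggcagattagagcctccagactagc
Cx3cl1: cggGGGCGGaggctgccagcccatTATAAA
The Ccl12 and Ccl8 stretches had the same base at 127 of 182 aligned positions (69.78%), with 36 gap positions left out of this share. Both carried TATAAA, which 13.6% of all 32851 promoter windows held, at 31 and 32 bases before the start site, respectively. Fractalkine carried TATAAA next to the start site of its window and an SP1 match (GGGCGG), which 35.7% of windows held. An ISRE core (GAAANNGAA, in 8.56% of windows) stood on the minus strand of the Ccr2 window, at chr9:124102097-124102105. This match also lies within the listed span of its gene, which starts further upstream. None of the 4 windows matched an NF-kB site, an AP-1 site (TGANTCA) or a GAS element (TTCNNNGAA) on either strand, which 8.46%, 7.81% and 8.3% of windows held. A match to letters describes the sequence only.

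Library depth, estimated from coverage, was 21.4 to 29.4 M reads (1 M is 1000000). Mitochondrially encoded genes took 47.3% to 57.2% of TPM in RM-9 and 22.5% to 40.6% in MC-38, so that TPM of other genes were lower in RM-9. The median gene shifted by 0.06, −0.19 and −0.04 on the log2 scale in RM-9 and by 0.19, 0.33 and 0.22 in MC-38 at 3, 12 and 24 h against Control, and changes of the chemokines are therefore also given relative to this shift. When libraries were instead scaled to their median gene ratio, the split of all called genes into higher and lower went from 4467 and 408 to 995 and 1549 in MC-38 at 12 h, from 2074 and 87 to 1233 and 1283 in MC-38 at 24 h, and from 10 and 1162 to 11 and 6 in RM-9 at 12 h. Skeletal muscle genes summed to between 2.75 and 11280 TPM, and the highest sum belonged to MC-38 Control mouse 1. That mouse also had the highest mitochondrially encoded share in MC-38 (40.6%) and the lowest Ccl2, Ccl7 and Cx3cl1 levels of its group. The part of either feature in these levels was not tested. Keratin 8 was at 463 to 1069 TPM in RM-9, whereas the 5 epithelial markers together reached 1.56 TPM at most in MC-38, which the labels call an adenocarcinoma. Among the defining tissue genes, Pbsn (prostate) was at 0 in all 31 libraries, Cdx2 (colon) was at 3.74 to 7.68 TPM in RM-9 and at 0 in MC-38, and Hoxb13 (prostate) was at most 0.055 TPM in RM-9 and 0.45 to 3.03 TPM in MC-38. These markers go against the tissue of origin in the labels, and the models are called here by their line names only. Any difference in library preparation or sequencing between the models cannot be told apart from the model itself.

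In unirradiated tumors the chemokines were expressed at higher levels in MC-38 than in RM-9, and Ccl2 differed most. Ccl2 was at 77.7, 96.2, 66.5 and 96.7 TPM in the RM-9 Control mice (84.2 ± 14.8, SD, n = 4) and at 323, 388, 408 and 373 TPM in the MC-38 Control mice (373 ± 36.4, SD, n = 4). The lowest MC-38 tumor was above the highest RM-9 tumor, and the fold was 4.44 (log2 difference 2.15, SE 0.19, limma adjusted p = 1.45e-10). Ccl7 (fold 2.81, adjusted p = 3.78e-06), Ccl12 (fold 2.43, adjusted p = 0.000329), Cx3cl1 (fold 2.07, adjusted p = 3.26e-05) and Ccr2 (fold 1.75, adjusted p = 0.00811) were also higher in MC-38 by limma. Ccl8 did not pass the test, with 60.6 to 117 TPM in RM-9 and 63.5 to 187 TPM in MC-38 and a log2 difference of 0.51 (95% interval −0.46 to 1.48, limma adjusted p = 0.331).

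The 5 calls of 6 are to be read against 75.4% of all genes that were called between the models, with a median log2 difference of 0.63. Relative to that median the log2 differences were 1.53 for Ccl2, 0.87 for Ccl7, 0.65 for Ccl12, 0.42 for Cx3cl1, 0.18 for Ccr2 and −0.12 for Ccl8. With median-ratio scaling 3 of the 6 were called, Ccr2 (log2 difference 0.17, limma adjusted p = 0.608) and Ccl12 (0.62, adjusted p = 0.0907) no longer passed, and Ccl8, called in neither case, stood at −0.16. In RM-9 Control tumors the order by mean level was Ccl2, Ccl8, Ccl7, Ccl12, Ccr2 and Cx3cl1, in which Ccl2 and Ccl8 overlapped between mice. In MC-38 Control tumors Ccl2 led without overlap, and Ccl8 and Ccl7 overlapped behind it.

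**Figure D1:**
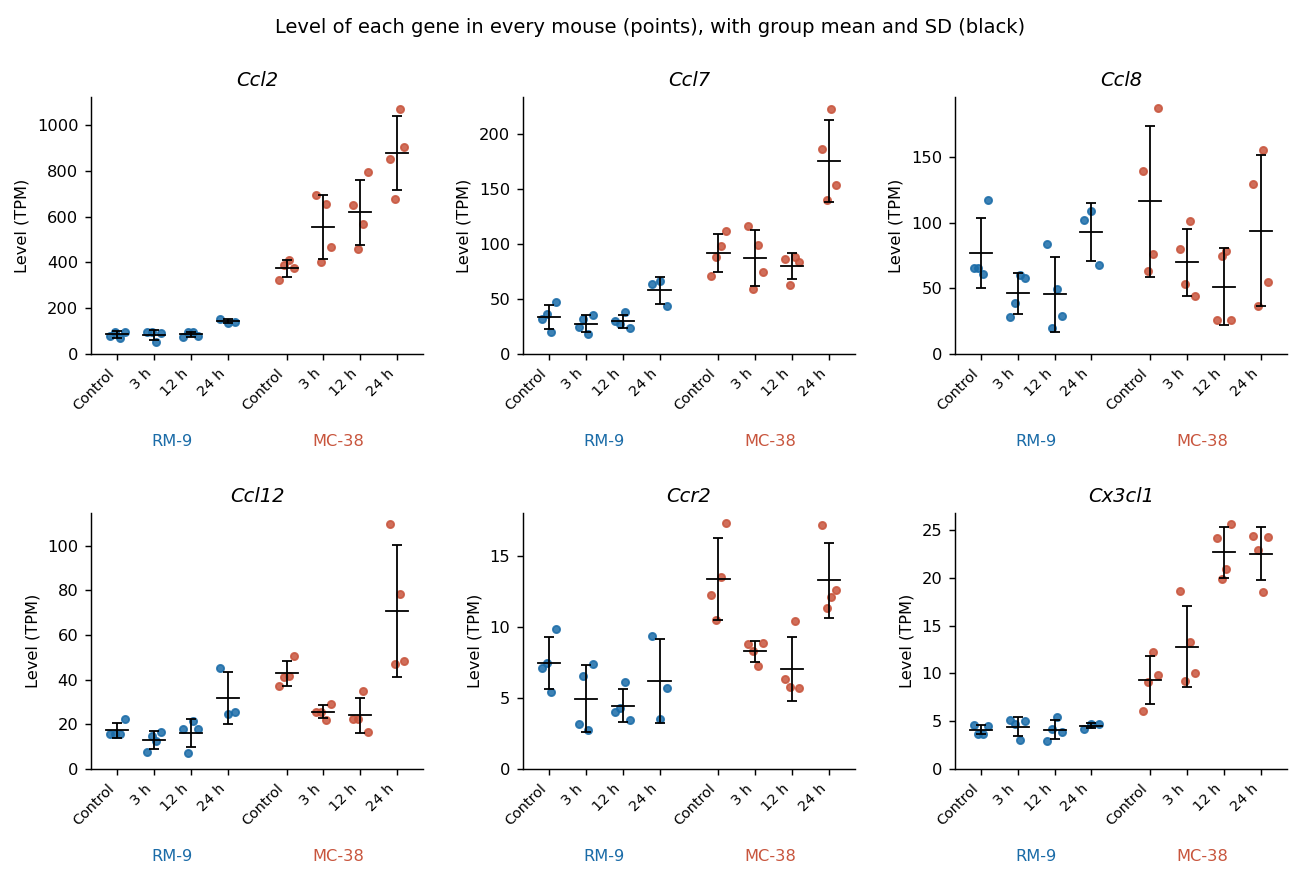
Levels in TPM of the 6 genes in every mouse, by model and group (Control, RT 3 h, 12 h and 24 h). Points are mice and bars the group mean ± SD. In MC-38, Ccl2 averaged 373 TPM in Control and 877 TPM at 24 h, Cx3cl1 was near 22.5 TPM at 12 and 24 h against 9.30 TPM in Control, and Ccl12 and Ccr2 were low at 3 and 12 h.

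Which of these genes responded to irradiation was asked for each time against Control within a model. In RM-9 no member passed the test at 3, 12 or 24 h, where 0.228%, 8.35% and 0.0% of all genes were called. In MC-38 no member passed at 3 h (0.0636% of all genes), 4 of 6 at 12 h, 2 higher and 2 lower (31% of all genes), and 3 of 6 at 24 h, all higher (13.7% of all genes). The median log2 change of the 6 genes was −0.53 at 12 h and 0.78 at 24 h in MC-38, beside 0.33 and 0.22 over all genes. Unadjusted limma p-values were under 0.05 for 0, 2 and 3 members at 3, 12 and 24 h in RM-9, beside 21.9%, 31% and 4.89% of all genes, and for 3 members at 3 h in MC-38, beside 19.9% of all genes. In exact two-sided permutation tests of the TPM values, none of 36 comparisons passed after adjustment, since the smallest p of 0.0286 became 0.0857. Control mice are shared by the comparisons within a model, which are therefore not independent of each other.

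Ccl2, the leading attractant of classical monocytes, rose against Control in MC-38 tumors at 12 and 24 h after RT. Its level was 693, 401, 654 and 468 TPM at 3 h (554 ± 142, SD, n = 4) and 649, 458, 568 and 794 TPM at 12 h (618 ± 141, SD, n = 4). At 24 h it was 853, 678, 1071 and 904 TPM (877 ± 162, SD, n = 4). Every mouse at 12 and 24 h was above the highest Control mouse, at 408 TPM, whereas 3 h mouse 2 lay within the Control range. The log2 change was 0.54 at 3 h (SE 0.19, limma adjusted p = 0.175), 0.70 at 12 h (SE 0.19, adjusted p = 0.0194) and 1.22 at 24 h (SE 0.19, adjusted p = 0.00117), a fold of 2.33 at 24 h. Relative to the median gene these were 0.35, 0.38 and 1.00. The 12 h call rested on the scaling and on single libraries: it was lost with median-ratio scaling (log2 change 0.35, limma adjusted p = 0.231), with FPKM (0.42, adjusted p = 0.144), and without Control mouse 1 (adjusted p = 0.0569) or 12 h mouse 4 (adjusted p = 0.0611). The 12 h change also did not pass Dunnett's test, which is described below. At 24 h the change kept its call under every setting tried, and without Control mouse 1 it was 1.15.

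In RM-9, Ccl2 stayed near its Control level at 3 h, with 96.4, 93.9, 51.3 and 88.8 TPM, and at 12 h, with 73.0, 94.7, 93.2 and 78.1 TPM. At 24 h it was 150.4, 134 and 139 TPM (141 ± 8.38, SD, n = 3). All 3 mice at 24 h lay above the highest Control mouse at 96.7 TPM, and the spread among them was small. The log2 difference of 0.76 (SE 0.19, fold 1.69) had an unadjusted limma p of 0.00136 and an adjusted p of 0.791. At that time 0 of 14032 genes passed the limma threshold and 686 had an unadjusted p under 0.05. With Dunnett's test within each gene, which was not adjusted over genes, 3 members (Ccl2, Ccl7 and Ccl12) passed at 24 h in RM-9, where 2.32% of all genes did. By the same test 1 member (Ccr2) passed in MC-38 at 3 h, where 8.8% of all genes did. At 12 h in MC-38 2 passed (Ccr2 and Cx3cl1), where 32.5% of all genes did. Ccl2 and Ccl12, both called by limma in MC-38 at 12 h, did not pass it. In RM-9 the log2 changes of Ccl2 at 3 h (−0.05, 95% interval −0.43 to 0.33) and 12 h (0.02, 95% interval −0.36 to 0.40) did not pass. Neither did its direct comparisons of 24 h with 3 h (limma adjusted p = 0.153) and with 12 h (adjusted p = 0.126).

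Ccl7, a CCR2 ligand whose gene adjoins Ccl2, rose in MC-38 at 24 h and did not pass the test at the earlier times. Control mice had 70.2, 88.4, 98.2 and 111 TPM (92.0 ± 17.3, SD, n = 4) and mice at 24 h 186, 139, 223 and 154 TPM (176 ± 37.1, SD, n = 4). These groups did not overlap, and the log2 change was 0.92 (SE 0.21, fold 1.90, limma adjusted p = 0.00982). At 3 h Ccl7 was at 58.6 to 116 TPM and at 12 h at 62.7 to 88.1 TPM, which overlapped Control, with log2 differences of −0.11 (adjusted p = 0.767) and −0.19 (limma adjusted p = 0.454). In RM-9 the 24 h mice had 63.2, 66.4 and 43.1 TPM against 31.3, 36.1, 19.7 and 46.6 TPM in Control. Mouse 3 at 24 h was below the highest Control mouse, and the log2 difference of 0.81 had a limma adjusted p of 0.963.

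Ccl12, a mouse ligand of CCR2, moved down and then up in MC-38. Control mice had 37.2, 41.4, 41.8 and 50.8 TPM (42.8 ± 5.71, SD, n = 4). The values were 25.7, 25.7, 22.0 and 29.0 TPM at 3 h and 22.2, 22.4, 34.7 and 16.6 TPM at 12 h, so that every mouse at both times was below every Control mouse. At 12 h Ccl12 fell by 0.86 on the log2 scale (SE 0.24, limma adjusted p = 0.0220), and the difference at 3 h was −0.73 (adjusted p = 0.166). By Dunnett's test Ccl12 did not pass at 12 h. The 12 h limma call was lost without Control mouse 4 (limma adjusted p = 0.0570), 12 h mouse 2 (0.0575) or 12 h mouse 4 (0.0690). At 24 h it was 109.6, 47.1, 78.3 and 48.2 TPM (70.8 ± 29.6, SD, n = 4), with 2 mice inside the Control range and a log2 difference of 0.64 (limma adjusted p = 0.0914).

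Between irradiated groups Ccl12 also rose: from 12 to 24 h its log2 change was 1.50 (fold 2.83, limma adjusted p = 0.00402). In RM-9, Ccl12 was at 15.6, 15.7, 15.9 and 22.4 TPM in Control and at 45.4, 24.8 and 25.3 TPM at 24 h. All 3 were above Control, mouse 1 well above the other two, and the log2 difference of 0.81 (SE 0.34) had a limma adjusted p of 0.999.

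Ccl8 passed no test against Control in either model. In MC-38 it was at 139, 63.5, 76.1 and 187 TPM in Control, 25.4, 74.6, 78.7 and 26.0 TPM at 12 h and 129, 36.3, 155 and 55.1 TPM at 24 h. The groups overlapped, with Control mouse 2 below 2 of the 4 mice at 12 h. Its log2 difference at 12 h was −1.25 (95% interval −2.31 to −0.18, limma adjusted p = 0.0658) and that at 24 h −0.41 (95% interval −1.47 to 0.65, adjusted p = 0.605). The 12 h value passed without Control mouse 2 (limma adjusted p = 0.0440) or 3 (0.0478). In RM-9 the 3 h mice, at 28.1, 38.5, 60.0 and 57.4 TPM, were all below the lowest Control mouse at 60.6 TPM, with a log2 difference of −0.75 (limma adjusted p = 0.252).

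**Figure D2:**
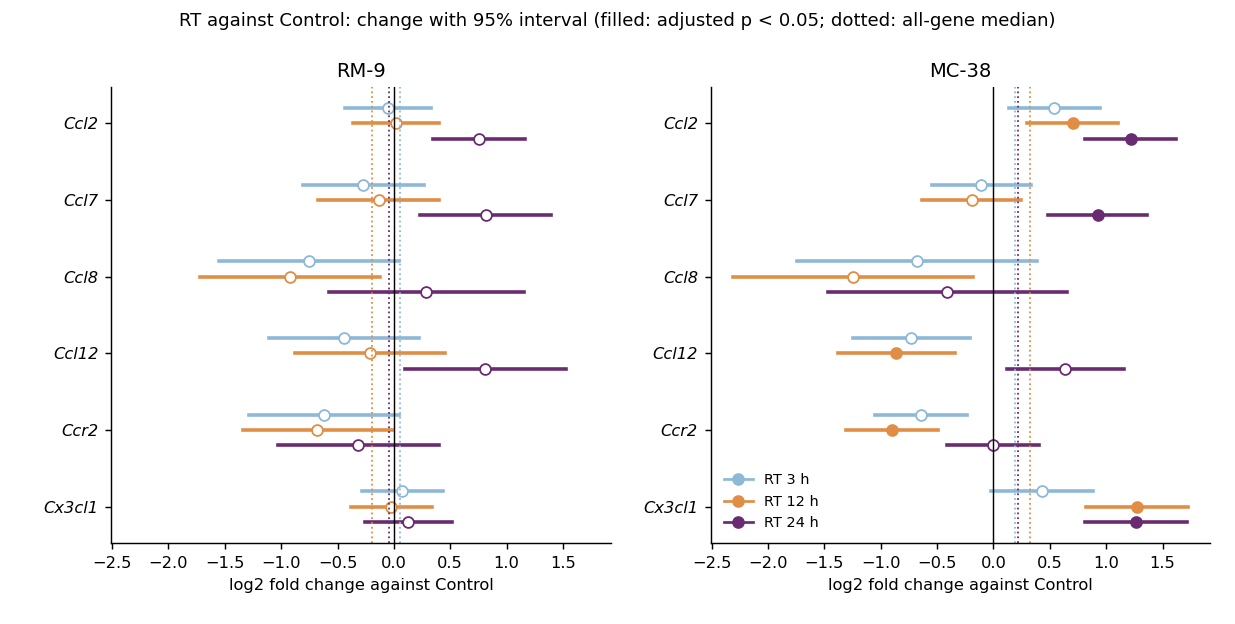
Log2 change of each gene against Control at 3, 12 and 24 h in RM-9 and MC-38, with the 95% interval of the limma fit. Filled points have an adjusted p under 0.05 and the dotted lines are the medians of all genes at each time. No point is filled in RM-9, and in MC-38 at 24 h Ccl2 (1.22), Ccl7 (0.92) and Cx3cl1 (1.26) lie above the median of 0.22.

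The mixture of the 4 ligand transcripts was also described, though none of its tests passed after adjustment. Their summed level in MC-38 was 624 ± 69.5 TPM in Control and 1217 ± 260 TPM at 24 h (SD, n = 4 each), and in RM-9 212 ± 51.4 (n = 4) and 323 ± 44.1 TPM (n = 3). Ccl2 made up 60.1% of the sum in MC-38 Control and 75.2%, 79.3% and 72.5% at 3, 12 and 24 h. In RM-9 it made up 40.2% in Control and between 44.1% and 49.7% after RT. Ratios to Ccl2 within a mouse depend little on library scaling. In MC-38, Ccl12 was 11.56% of Ccl2 in Control and 4.81%, 3.91% and 7.74% at 3, 12 and 24 h. Ccl7 was 24.53% of Ccl2 in Control and 15.67%, 13.18% and 20.01% after RT. Ccl8 went from 28.63% of Ccl2 to 12.33%, 7.41% and 9.27%, so that the group means of all 3 ratios were lower after RT. In exact two-sided permutation tests of the log2 ratios, all of these MC-38 differences except that of Ccl12 at 24 h (p = 0.114) reached the smallest p that 4 against 4 mice allow, 0.0286. After adjustment over the 18 ratios tested none passed, with 0.0643 the smallest exact permutation value. The ratio of Ccl8 to Ccl2 in RM-9 was 89.36% in Control and 55.08%, 46.58% and 64.56% after RT, with none of the 3 passing.

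**Figure D3:**
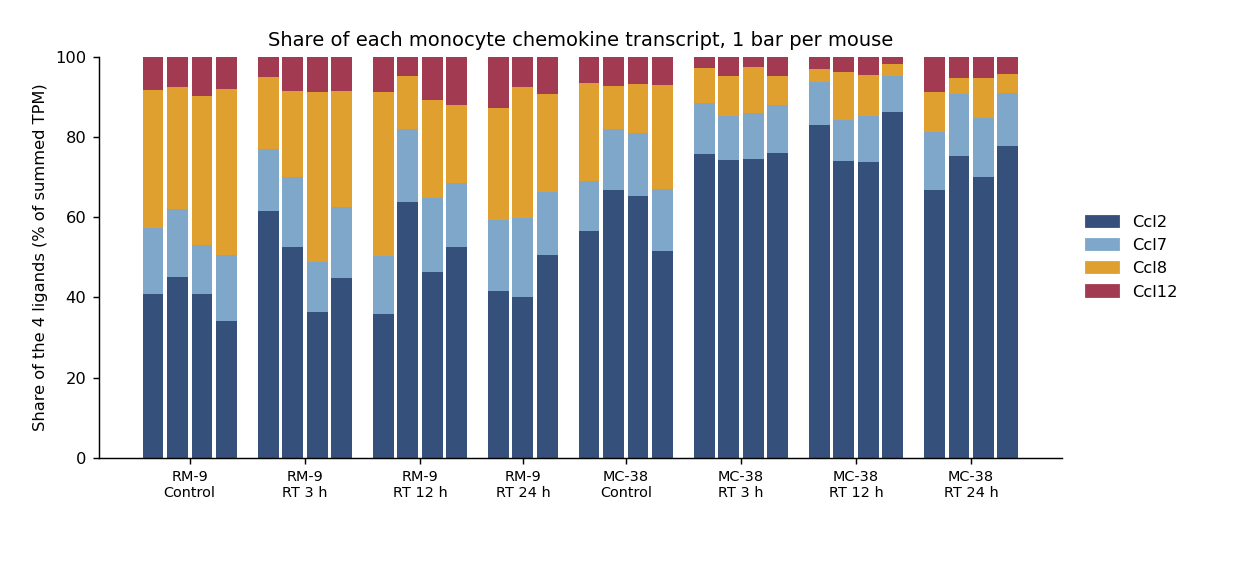
Share in percent of the summed TPM of Ccl2, Ccl7, Ccl8 and Ccl12 that each contributed, with 1 stacked bar per mouse and mice ordered by model and group. The Ccl2 share in MC-38 lay between 51.6% and 66.7% in Control mice and between 66.8% and 86.3% in irradiated mice.

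Ccr2, the receptor for CCL2, CCL7 and CCL12, was lower in MC-38 at 12 h and back at the Control level at 24 h. Control mice had 12.2, 10.5, 13.5 and 17.3 TPM (13.4 ± 2.88, SD, n = 4). At 3 h the values were 8.78, 8.28, 7.23 and 8.83 TPM, and at 12 h 6.32, 5.78, 10.4 and 5.69 TPM (7.05 ± 2.25, SD, n = 4). Both groups lay below every Control mouse, although 12 h mouse 3 stood close to the lowest. Ccr2 fell by 0.90 on the log2 scale at 12 h (SE 0.19, limma adjusted p = 0.0106), a call kept under every setting tried, and the difference at 3 h was −0.64 (adjusted p = 0.141). At 24 h it was 17.1, 11.3, 12.1 and 12.6 TPM, with a log2 difference of −0.01 (95% interval −0.41 to 0.40, limma adjusted p = 0.989). In RM-9, where Control mice had 7.09, 7.42, 5.44 and 9.84 TPM, the log2 differences were −0.62, −0.68 and −0.32 at 3, 12 and 24 h, and none passed (smallest limma adjusted p = 0.153).

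In bulk tissue fewer cells of a type and less RNA per cell cannot be told apart, and markers of cells that can carry CCR2 are given beside it. Of 7 classical monocyte genes, 3 fell at 12 h in MC-38, including Ly6c2 (137 to 62.9 TPM, log2 change −1.11, limma adjusted p = 0.0117) and Plac8 (108 to 63.1 TPM). Their sum ranged from 264 to 453 TPM in Control, from 130 to 230 TPM at 12 h and from 421 to 826 TPM at 24 h. At 24 h 4 of the 7 rose, including Ly6c2 (283 TPM, log2 change 1.04, limma adjusted p = 0.0131) and Chil3, a chitinase-like gene of monocytes (7.05 to 19.6 TPM), while Ccr2 was at its Control level, but 0 of the 7 passed with median-ratio scaling or FPKM. Of 8 macrophage genes 5 fell at 12 h, led by the complement genes C1qb (log2 change −1.56, limma adjusted p = 0.00497), C1qc and C1qa, and their sum went from 839 to 1335 TPM in Control to 308 to 726 TPM at 12 h. At 24 h 0 of the 8 were called, with a sum of 687 to 865 TPM, and 3 were lower with median-ratio scaling. In RM-9 at 12 h 4 of the 8 macrophage genes and 0 of the 7 monocyte genes fell, and 0 of the 8 did so with median-ratio scaling. Over all genes 2.6% fell at 12 h and 13.2% rose at 24 h in MC-38, and 8.28% fell at 12 h in RM-9. No marker of either list was at 0 in every library of a group. Of 6 T cell genes 4 also fell at 12 h in MC-38. The part of these cells in the change of Ccr2 was not tested.

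**Figure D4:**
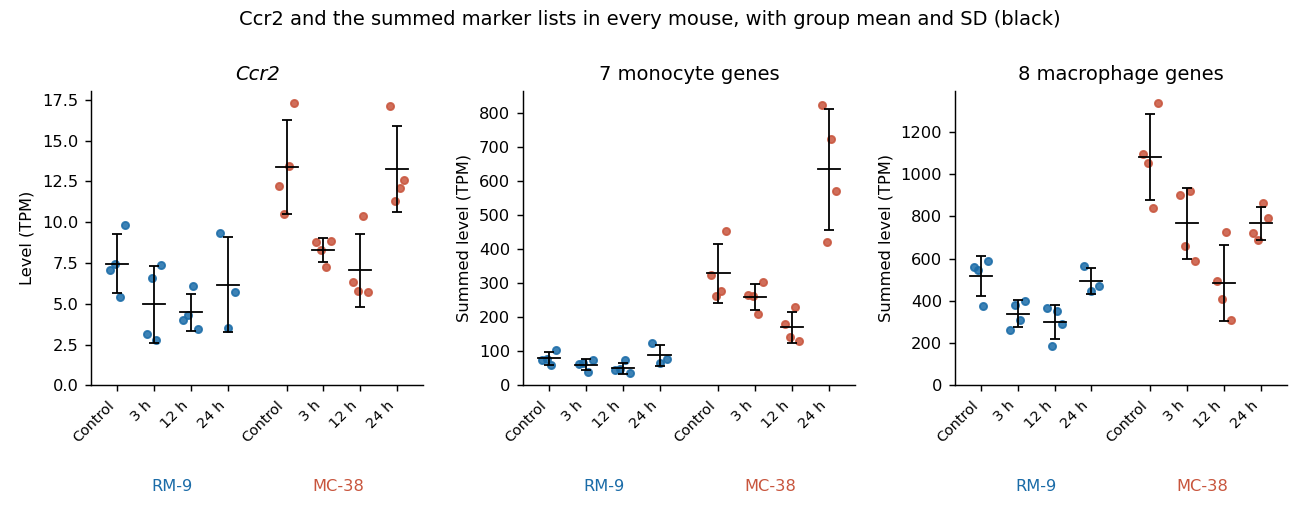
Level of Ccr2 and summed levels of 7 monocyte and 8 macrophage genes, in TPM, in every mouse by model and group, with group mean ± SD. In MC-38 all are lowest at 12 h, and at 24 h the monocyte sum (421 to 826 TPM) overlaps the Control range (264 to 453 TPM) in 1 mouse only. The macrophage sum at 24 h (687 to 865 TPM) reaches only the lower end of its own Control range (839 to 1335 TPM). Its median of 757 TPM lies below that range.

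Cx3cl1, which encodes fractalkine, rose in MC-38 at 12 and 24 h and did not pass the test in RM-9 at any time. In MC-38 it was at 6.10, 9.09, 12.2 and 9.82 TPM in Control (9.30 ± 2.52, SD, n = 4) and at 18.7, 9.25, 13.3 and 10.0 TPM at 3 h. It was 24.1, 19.9, 20.9 and 25.7 TPM at 12 h (22.7 ± 2.70, SD, n = 4) and 24.4, 22.9, 18.5 and 24.3 TPM at 24 h (22.5 ± 2.75, SD, n = 4). Mice at 3 h spread over both ranges, and every mouse at 12 and 24 h was above the highest Control mouse. The log2 change was 0.43 at 3 h (SE 0.21, limma adjusted p = 0.264), 1.27 at 12 h (SE 0.21, fold 2.42, adjusted p = 0.00519) and 1.26 at 24 h (SE 0.21, fold 2.40, adjusted p = 0.00181). Relative to the median gene the last 2 were 0.95 and 1.04, and both were called under every setting tried. Control mouse 1 was the tumor with most muscle RNA and the highest mitochondrially encoded share in MC-38. Without it the changes at 12 and 24 h were 1.09 (limma adjusted p = 0.0106) and 1.09 (0.00426). In RM-9 all mice lay between 2.98 and 5.41 TPM, with log2 differences of 0.07, −0.02 and 0.13 and 95% intervals from −0.38 to 0.52 over the 3 times.

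The receptor of fractalkine moved the other way in MC-38. Cx3cr1 was at 5.39 ± 0.848 TPM in Control, 2.29 ± 1.34 TPM at 12 h (log2 change −1.20, limma adjusted p = 0.0139) and 1.47 ± 0.0510 TPM at 24 h (log2 change −1.57, limma adjusted p = 0.00285), each SD with n = 4. Of 8 endothelial genes, 0 were called at 12 h (31% of all genes) and 2 rose at 24 h (13.2% of all genes). The 2 were Kdr (3.98 to 6.85 TPM) and Cdh5 (15.9 to 25.2 TPM), and neither passed with median-ratio scaling. The 8 genes summed to 85.4 to 106 TPM in Control, 83.1 to 95.7 TPM at 12 h and 104 to 120.2 TPM at 24 h. The part of endothelial cells in the level of Cx3cl1 was not tested. The proteases that shed fractalkine were not called at either time, with log2 differences of 0.26 and 0.14 for Adam10 and 0.25 and 0.15 for Adam17 at 12 and 24 h.

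Whether the response differed between models was tested in 1 fit over all 31 libraries, by subtracting the RM-9 change from the MC-38 change. At 3 h 0 of the 6 members differed (0.0% of all genes, of which 1521 had an unadjusted limma p under 0.05), at 12 h 2 did (45.4% of all genes) and at 24 h 1 did (1.81% of all genes). For Cx3cl1 the difference was 1.30 at 12 h (SE 0.28, limma adjusted p = 0.00261) and 1.14 at 24 h (SE 0.29, adjusted p = 0.0400). For Ccl2 it was 0.69 at 12 h (SE 0.27, limma adjusted p = 0.0427), 0.19 above the median gene. For Ccl2 at 24 h it was 0.46 (95% interval −0.12 to 1.04, limma adjusted p = 0.336), so a difference was not shown there. The other 4 members had differences of −0.65 to −0.06 at 12 h and none passed. None of these 3 calls was kept with median-ratio scaling, under which the limma adjusted p was 0.0735 and 0.0730 for Cx3cl1 at 12 and 24 h and 0.802 for Ccl2 at 12 h. The Cx3cl1 call at 24 h was also lost on leaving out any of 11 single libraries, among them each RM-9 Control mouse and each RM-9 24 h mouse, with limma adjusted p between 0.0508 and 0.124. The Ccl2 call at 12 h was lost on leaving out any of 8 (mice 2 or 4 of RM-9 Control, 1 or 4 of RM-9 12 h, 1 or 4 of MC-38 Control, 1 or 4 of MC-38 12 h), with limma adjusted p between 0.0574 and 0.102.

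Irradiated groups were also compared with each other. In MC-38 from 12 to 24 h, Ccl12 (log2 change 1.50), Ccl7 (log2 change 1.12, fold 2.17, limma adjusted p = 0.00949) and Ccr2 (0.89, fold 1.86, adjusted p = 0.0249) rose, where 1.68% of all genes were called. From 3 to 24 h Ccl12 (1.37, limma adjusted p = 0.00886) and Ccl7 (1.03, adjusted p = 0.0149) rose, where 2.18% of all genes were called. Ccl2 did not pass in either, with 0.51 (limma adjusted p = 0.229) and 0.68 (adjusted p = 0.0799). Without mitochondrially encoded genes its change from 3 to 24 h was called (limma adjusted p = 0.0425). Cx3cl1 was level from 12 to 24 h at −0.01 (95% interval −0.46 to 0.44), and from 3 to 24 h it was at 0.83 (limma adjusted p = 0.053). That Cx3cl1 change was called with median-ratio scaling (limma adjusted p = 0.021), FPKM (0.027) or a mean TPM of at least 5 (0.048). It was also called without mitochondrially encoded genes (limma adjusted p = 0.025) or without 3 h mouse 1 (0.024). The Ccr2 change was lost on leaving out any of 6 libraries (12 h mice 1, 2 or 4, or 24 h mice 1, 3 or 4), with limma adjusted p from 0.0569 to 0.106, and the Ccl7 change from 3 to 24 h without 3 h mouse 2 or 24 h mouse 3. From 3 to 12 h none of the 6 passed in MC-38 (0.0% of all genes, 1582 with an unadjusted limma p under 0.05). In RM-9 none passed from 3 to 12 h (29.0% of all genes), from 12 to 24 h or from 3 to 24 h (0.0% each, with 2645 and 2932 genes at an unadjusted limma p under 0.05).

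Genes around this pathway were counted on lists of known members. Of 15 other CC chemokines, 1 fell in MC-38 at 12 h, where 2.6% of all genes fell. It was Ccl1, which was listed at 0 in every mouse at that time. At 24 h 4 of the 15 rose: Ccl4 (25.6 to 83.6 TPM, log2 change 1.68, limma adjusted p = 0.000316), Ccl5 (log2 change 1.56), Ccl3 (9.23 to 21.6 TPM, log2 change 1.21) and Ccl11 (1.29). Over all genes 13.2% rose at 24 h, and 3 of the 15 rose with median-ratio scaling or FPKM. Ccl11 lies within the cluster on chromosome 11. Among 14 chemokine receptors and decoys, 4 fell at 12 h in MC-38, including Ccr1 (13.4 to 7.14 TPM, log2 change −0.91, limma adjusted p = 0.0144) and Cx3cr1, and 1 rose. Over all genes 2.6% fell and 28.4% rose at 12 h. With median-ratio scaling 5 of the 14 fell and 0 rose. At 24 h Ccrl2, a receptor that binds chemerin without signalling, rose (7.87 to 23.5 TPM, log2 change 1.51, limma adjusted p = 0.000290) and Cx3cr1 fell.

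Of 14 genes that induce or signal for these chemokines, 4 rose at 12 h, where 28.4% of all genes rose, and 9 at 24 h, where 13.2% did, in MC-38. The 12 h count is near the share of all genes. The 9 included Il6 (1.34 to 6.22 TPM, log2 change 1.82, limma adjusted p = 0.000290), Ifnb1, the gene of interferon beta (0.684 to 4.38 TPM, log2 change 1.97, adjusted p = 0.000361), and Nfkbia, the inhibitor that NF-kB itself switches on (79.2 to 142 TPM). With median-ratio scaling 7 rose at 24 h, and at 12 h 0 rose and 1 fell. At 3 h in MC-38 only Fos was called among all lists (8.97 to 17.2 TPM, log2 change 0.90, limma adjusted p = 0.0357). Of 7 partners in the pathway 2 fell at 12 h in MC-38, where 2.6% of all genes fell. They were Ctss, a cathepsin that can cleave fractalkine (479 to 236 TPM, log2 change −1.07, limma adjusted p = 0.00528), and Pik3cg. Of the 6 T cell genes 3 fell at 24 h in MC-38 (0.554% of all genes), and 4 fell at 12 h in RM-9 (8.28% of all genes). In RM-9 at 12 h 0 listed genes were called with median-ratio scaling. Of 6 fibroblast genes 1 rose at 12 h in MC-38, Pdgfra (9.10 to 17.5 TPM). Of 8 neutrophil genes tested in MC-38, 0 were called at 12 h and 1 rose at 24 h, Mmp9 (11.4 to 49.9 ± 50.3 TPM, SD, n = 4). That count is near the 13.2% of all genes that rose at 24 h. With median-ratio scaling 0 of these 8 rose at 24 h and 1 fell at 12 h. In RM-9 none of the listed genes were called at 3 or 24 h.

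The 6 genes did not vary as 1 unit across mice. Pearson's r of log2 levels over the 15 RM-9 and the 16 MC-38 mice is given as a description, since the mice share groups and library scaling. Ccl2 went with Ccl7 (0.868 and 0.739) and, more in MC-38, with Cx3cl1 (0.575 and 0.821). Ccl12 went with Ccr2 (0.511 and 0.881) and with Ccl8 (0.761 and 0.577), while Ccl2 and Ccl8 showed little relation (0.252 and −0.148). Among 12255 genes ranked by the lower of both r, the most alike were Gm19705 and Csrnp1 for Ccl2, Cd68 (0.865 and 0.856) for Ccl7, Igf1 (0.902 and 0.908) for Ccl8, Ch25h (0.896 and 0.926) for Ccl12, Ms4a6b (0.889 and 0.973) for Ccr2, and Agpat4 (0.811 and 0.820) for Cx3cl1.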

How the data were processed

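Single-end reads of 75 bases from stranded mRNA libraries were quantified by the authors, who deposited 1 gene table per mouse with TPM, FPKM and coverage. The deposited TPM sum to 1000000 per library, the deposited FPKM and coverage (signal) were used for an alternative and for depth, and no read counts were used. The submitters' processing notes name GRCm39, but the coordinates are those of GRCm38 (45137 of 46072 gene IDs shared with GENCODE M21, 91.069% with the same start or end). The aligner and quantifier are not given in the sources used here. Depth was estimated from the median ratio of coverage to FPKM over genes with 1 transcript and an FPKM above 1, scaled by the read length.

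The 6 genes and all gene lists were chosen with earlier results of these data known. Genes with a mean of at least 0.5 TPM, plus all listed genes, were tested as log2(TPM + 0.5) with limma 3.58.1 (lmFit and eBayes with trend, R 4.3.3), with the 4 groups of a model in 1 fit, or all 8 groups for comparisons between models. Fold changes on this scale understate changes of low genes. P-values were adjusted over all genes by Benjamini-Hochberg, with a threshold of 0.05. Exact permutation tests and Dunnett's test used TPM per gene. All members were named, with up to 3 called genes of smallest p per list and comparison, chromosomal neighbours, and the 3 genes most alike by the lower Pearson's r of both models, of which the first are printed. The fit was tested on simulated data: in MC-38 at 24 h (15565 genes) 80 of 100 genes changed by 1 log2 unit were recovered, and in RM-9 at 24 h (13928 genes) 94 of 100. The changes were planted in genes of higher level only, with independent noise for each gene and no shift shared by a library. The shares recovered therefore do not tell how many such changes the real comparisons would call. Python 3.11.15, scipy 1.17.1 and matplotlib 3.10.9 were used for the rest. Alternatives were other offsets, filters and scalings, FPKM, fits of only the groups compared, a replicate block and each mouse left out. Samples are separate mice by their labels. Some listed genes are not reported here.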

Additional observations from a re-analysis of the deposited data

Results flagged for a closer look

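In 4 of 42 gene-by-group sets of 4 mice, 1 mouse stood apart by Dixon's test, where chance gives about 1 in 20, or 2.1 sets. They were Ccl2 in RM-9 RT 3 h mouse 3 (51.3 TPM, the lowest), Ccl8 in RM-9 Control mouse 4 (117 TPM, the highest), Ccl12 in the same RM-9 Control mouse 4 (22.4 TPM, the highest) and Ccr2 in MC-38 RT 12 h mouse 3 (10.4 TPM, the highest). That MC-38 mouse also had the highest monocyte (230 TPM) and macrophage (726 TPM) sums of its group.

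The change after irradiation differed between the models for Cx3cl1 at 12 h (1.30 on the log2 scale, larger in MC-38), for Cx3cl1 at 24 h (1.14) and for Ccl2 at 12 h (0.69), by the limma fit over all libraries. None of these kept an adjusted p under 0.05 with median-ratio scaling.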

How the results depend on the processing

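Some smaller changes in the counts of called members also occurred. Ccl2 in MC-38 at 12 h was not called with median-ratio scaling or FPKM. Ccr2 between Control tumors was not called with FPKM or without mitochondrially encoded genes. From 3 to 24 h in MC-38, Cx3cl1 and Ccl2 were called without mitochondrially encoded genes. The larger changes in these counts were as follows. With Dunnett's test, not adjusted over genes and so not comparable with the limma counts, 3 members passed in RM-9 at 24 h (0 with limma), 1 in MC-38 at 3 h (0) and 2 in MC-38 at 12 h (4), where 2.32%, 8.8% and 32.5% of all genes passed. Ccl2 and Ccl12 were called by limma in MC-38 at 12 h and did not pass Dunnett's test. Between MC-38 RT times 3 changes were called when only the groups compared were fitted, against 5. Between Control tumors 3 members were called with median-ratio scaling, against 5. For the difference between models at 12 h the count went from 2 to 0 with median-ratio scaling or FPKM and to 1 without mitochondrially encoded genes or without a filter. At 24 h it went from 1 to 0 with an offset of 0.1 TPM, median-ratio scaling, FPKM, no filter, only the groups compared, or the replicate block. Leaving out each mouse in turn gave 2 to 5 members in MC-38 at 12 h, 1 to 5 changes between MC-38 RT times, 1 to 3 members in the difference at 12 h and 0 to 1 at 24 h, and did not change the count in the others. Where the scaling changed a value, the cause was not tested. Of 1443 alternative values 63 changed sign, none of them called in either setting.

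No pairing by mouse number was seen. The median correlation of same-numbered mice was −0.13 over 21 pairs in RM-9 and −0.063 over 24 in MC-38. For mice of different numbers it was 0.017 and 0.052. Single same-numbered pairs ran from −0.425 to 0.275 in RM-9 and from −0.496 to 0.53 in MC-38. With so few mice per group this cannot exclude that some were handled together. With the replicate block 4 members were called in MC-38 at 12 h, 3 at 24 h and 4 between Control tumors, and Ccr2 between Control tumors was no longer called (log2 difference 0.63, limma adjusted p = 0.175).

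With 3 or 4 mice per group an exact permutation test cannot give a p below 0.0286. Depth was estimated from coverage, so no counting interval was formed.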
